A study of Mus musculus with 27 samples.

Results

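The 9 genes followed here, Arg1, Mrc1, Clec10a, Cd163, Folr2, Pdcd1lg2, Cd200r1, Tmem26 and Flt1, were chosen by name as genes of alternative macrophage activation, out of 56941 annotated genes, and all 9 were among the 24581 genes that passed the filter on low counts. Earlier results of these data were known when the 9 were chosen. Their levels were read in polyA-selected RNA from whole lungs of male C57Bl/6J mice aged 7 to 8 weeks, with 1 library per mouse as far as the labels say. At intervals of 2 to 3 days all mice received 5 oropharyngeal instillations, of 10 µg house dust mite extract (HDM, an allergen that induces allergic airway inflammation) in 50 µl or of PBS, and 24 h after the fifth a single instillation of 100 µl, either of a suspension of combustion products (CP, 2 mg per ml, made by burning paper, plastic and plywood under controlled conditions) or of saline (SAL) alone. Lungs were taken 24 h later. The groups were HDM_CP (n = 7), HDM_SAL (n = 6), PBS_CP (n = 7) and PBS_SAL (n = 7), and a library carries its group's name and the number that its label gives. Every mouse was wild type, so no cell was marked or removed, and whole lung RNA does not say which cells a transcript came from.

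Alternative activation is the state that macrophages enter when IL-4 or IL-13 engages a receptor containing IL-4Rα and activates the transcription factor STAT6. In mice it is known for arginase 1, chitinase-like and resistin-like proteins, lectin receptors that take up glycans, and surface ligands that restrain T cells, and in the lung it accompanies allergy, helminth infection and tissue repair. Many of these genes are also used by resident macrophages at rest, and several, Flt1 above all, are expressed by other cell types.

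The total of estimated counts of a library lay between 56.3 M and 84.5 M, where M stands for mega. That is 2.8 to 4.2 times the 20 M read pairs planned. The total was under 60 M in 3 libraries (PBS_CP 102, PBS_SAL 104 and PBS_SAL 105). Mitochondrial genes took 2.16 to 2.71% of the counts in HDM_CP, 2.32 to 3.86% in HDM_SAL, 2.11 to 2.79% in PBS_CP and 2.08 to 2.48% in PBS_SAL, and HDM_SAL 50, 54 and 99 (3.26, 3.86 and 3.09%) lay above every other library. Levels are given as counts per M (CPM) for comparing 1 gene across libraries and as TPM, transcripts per M, which accounts for transcript length, for comparing genes. Fold changes are log2 values, each ± its standard error. A gene was called where the Benjamini-Hochberg adjusted p of edgeR's quasi-likelihood test, over all 24581 genes, was under 0.05. These p-values set a difference against the spread between libraries, which was fitted over all 4 groups together. Groups outside a comparison can thus widen its standard error. For Arg1 the SD of log2 CPM was 1.78 in HDM_CP, 0.53 in PBS_CP and 0.42 in PBS_SAL. Among the libraries of HDM_CP, number 96 was the lowest for Mrc1, Clec10a, Cd163, Folr2 and Tmem26, and number 45 was the lowest for Arg1, Pdcd1lg2 and Cd200r1. In HDM_SAL, number 52 stood apart for Tmem26, with 0.948 CPM but 1.39 TPM. In bulk tissue, fewer cells of a type and less RNA per cell cannot be told apart.

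STAT6 binds a palindrome, TTC then any 4 bases then GAA, which reads the same on both strands. RefSeq promoter windows of 300 bases on GRCm38.p6, from 250 bases before to 50 after a gene's start, were found for Cd163, Flt1, Folr2 (with 2 starts), Mrc1, Pdcd1lg2 and Tmem26, and the palindrome occurred in those of Pdcd1lg2 and Tmem26. It occurred in 2284 of the 32851 windows of the table, 6.95%. The 250 bases before the start are printed for Pdcd1lg2 and Tmem26, which hold the letters, and for Mrc1, the most abundant lectin receptor of the set, which does not, with each match in capitals. A match is a run of letters and not a measured site. The windows are chr19:29410669-29410918 on the plus strand for Pdcd1lg2, chr10:68723496-68723745 on the plus strand for Tmem26 and chr2:14229164-14229413 on the plus strand for Mrc1.
Pdcd1lg2: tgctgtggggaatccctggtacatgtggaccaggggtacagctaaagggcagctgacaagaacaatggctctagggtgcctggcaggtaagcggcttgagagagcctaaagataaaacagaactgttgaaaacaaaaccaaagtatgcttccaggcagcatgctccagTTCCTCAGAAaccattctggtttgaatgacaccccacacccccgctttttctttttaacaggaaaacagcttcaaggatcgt
Tmem26: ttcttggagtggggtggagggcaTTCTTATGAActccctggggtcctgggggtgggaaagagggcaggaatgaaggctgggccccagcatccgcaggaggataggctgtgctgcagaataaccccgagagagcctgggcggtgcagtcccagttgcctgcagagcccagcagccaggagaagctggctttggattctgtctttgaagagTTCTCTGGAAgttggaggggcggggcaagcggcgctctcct
Mrc1: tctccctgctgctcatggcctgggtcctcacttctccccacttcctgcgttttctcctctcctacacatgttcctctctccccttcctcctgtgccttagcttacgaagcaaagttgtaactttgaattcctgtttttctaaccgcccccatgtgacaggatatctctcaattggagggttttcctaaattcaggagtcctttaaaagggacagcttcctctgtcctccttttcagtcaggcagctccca
The match of Pdcd1lg2, TTCCTCAGAA, spans bases -82 to -73 from the start. Those of Tmem26 are TTCTTATGAA at -227 to -218 and TTCTCTGGAA at -41 to -32.

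Arg1 (chromosome 10, 24791119 to 24803382, minus strand, positions of all genes on GRCm39 from the deposited tables) encodes arginase 1, which splits arginine into ornithine and urea. The 7 HDM_CP libraries held 4.22 CPM (45), 5.92 (96), 6.51 (66), 18.9 (97), 32.1 (49), 64.4 (67) and 95.6 (98). The 6 HDM_SAL libraries held 3.09 CPM (100), 3.43 (52), 5.29 (54), 5.72 (72), 8.00 (50) and 24.3 (99). PBS_CP ran from 1.07 to 3.43 CPM with a median of 1.77, and PBS_SAL from 0.905 to 2.18 CPM with a median of 1.61. Every HDM_CP library thus lay above every PBS_CP and PBS_SAL library, and every HDM_SAL library above every PBS_SAL library, while HDM_CP and HDM_SAL overlapped, with 3 of 7 HDM_CP libraries above all of HDM_SAL. The HDM_CP libraries differed widely among themselves, and their SD of log2 CPM, 1.78, stood at percentile 99.4 of all genes tested in that group.

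Arg1 rose by 4.32 ± 0.66 in HDM_CP against PBS_SAL (20.0-fold, adjusted p = 7.4e-05) and by 4.07 ± 0.65 in HDM_CP against PBS_CP (16.8-fold, adjusted p = 0.00036). By limma on log2(TPM + 1), which understates the change of low genes, these were 3.04 ± 0.53 (adjusted p = 0.00028) and 2.90 ± 0.53 (adjusted p = 0.0013). In HDM_SAL against PBS_SAL it rose by 2.35 ± 0.63 (5.11-fold, adjusted p = 0.028). HDM_CP against HDM_SAL gave 1.97 ± 0.61 (adjusted p = 0.24) and PBS_CP against PBS_SAL gave 0.25 ± 0.62 (adjusted p = 1), and neither was called. The call in HDM_SAL against PBS_SAL was lost without HDM_SAL 99 (1.65 ± 0.59, adjusted p = 0.15) and without HDM_SAL 50, PBS_SAL 61, PBS_SAL 79 or PBS_SAL 80 (adjusted p of 0.054, 0.051, 0.052 and 0.064). It was also lost with limma voom and sample quality weights (2.18 ± 1.00, adjusted p = 0.19) and without the 3 libraries of highest mitochondrial share, HDM_SAL 50, 54 and 99 (1.33 ± 0.70, adjusted p = 0.66). Limma on log2(TPM + 1) (1.57 ± 0.55, adjusted p = 0.083) and on log2(TPM + 0.1) (1.87 ± 0.58, adjusted p = 0.051) lost it too. So did leaving out the 3 libraries under 60 M (2.36 ± 0.76, adjusted p = 0.068). Over all alternatives this call was lost in 13 of 41, and its adjusted p ran from 0.0018 to 0.66. Within the 3 runs of library numbers (45 to 64, 66 to 81 and 96 to 105, which the labels do not call batches), the difference in log2 CPM between HDM_CP and PBS_CP was 2.50, 3.88 and 3.39, and that between HDM_CP and HDM_SAL was 1.14, 1.84 and 1.34.

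**Figure D1:**
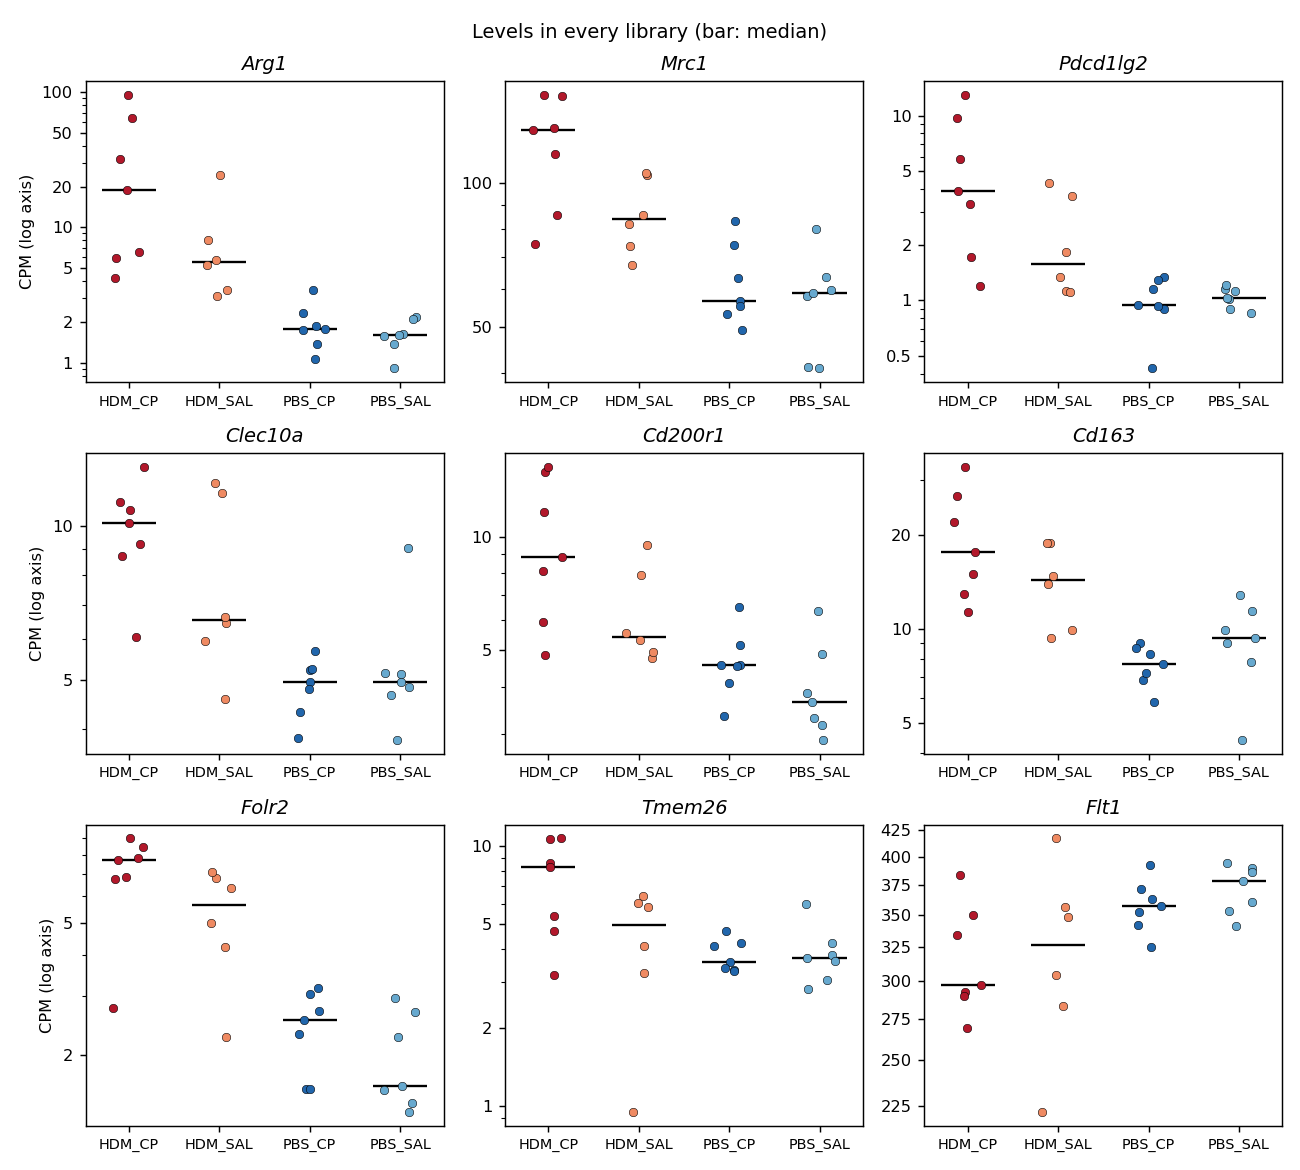
CPM of each of the 9 genes (log axes) in every library, by group, with HDM_CP at the left and a bar at each group's median. Arg1 and Pdcd1lg2 fan out within HDM_CP, from 4.22 to 95.6 CPM and from 1.19 to 12.96 CPM, whereas Flt1 stays between 222 and 417 CPM in all 27 libraries.

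Mrc1, Clec10a, Cd163 and Folr2 encode uptake or scavenger receptors. Mrc1 (chromosome 2, 14234203 to 14336868, plus strand), the mannose receptor CD206, ranged from 74.6 to 153 CPM in HDM_CP (median 129), from 67.2 to 105 in HDM_SAL (median 83.9), from 49.4 to 83.3 in PBS_CP (median 56.5) and from 40.9 to 80.2 in PBS_SAL (median 58.7). The HDM groups overlapped the PBS groups in their lowest libraries, and 5 of 7 HDM_CP libraries lay above all of HDM_SAL. Mrc1 rose by 1.06 ± 0.17 in HDM_CP against PBS_SAL (adjusted p = 8.4e-05), by 0.95 ± 0.17 in HDM_CP against PBS_CP (adjusted p = 0.0007) and by 0.59 ± 0.17 in HDM_SAL against PBS_SAL (adjusted p = 0.042). HDM_CP against HDM_SAL gave 0.47 ± 0.17 (adjusted p = 0.33). The call in HDM_SAL against PBS_SAL was lost when any of 8 libraries was left out, HDM_SAL 50, 52, 72 or 99 (adjusted p of 0.073, 0.052, 0.075 and 0.13) or PBS_SAL 61, 64, 80 or 81 (0.069, 0.064, 0.095 and 0.082). The same call did not pass without the filter on low counts, on TPM, with runs of library numbers as a block, without the 3 libraries under 60 M and without HDM_SAL 50, 54 and 99 together (adjusted p from 0.052 to 0.36).

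Clec10a (chromosome 11, 70047023 to 70061660, plus strand), a galactose-type lectin also called MGL1, held 6.06 to 13.04 CPM in HDM_CP (median 10.1), 4.58 to 12.1 in HDM_SAL (median 6.54), 3.84 to 5.68 in PBS_CP (median 4.96) and 3.81 to 9.04 in PBS_SAL (median 4.94). All HDM_CP libraries lay above all PBS_CP libraries, and PBS_SAL reached into the HDM_CP range through number 105 alone. It rose by 1.02 ± 0.20 in HDM_CP against PBS_CP (adjusted p = 0.0015) and by 0.88 ± 0.20 in HDM_CP against PBS_SAL (adjusted p = 0.0024). HDM_SAL against PBS_SAL gave 0.56 ± 0.20 (adjusted p = 0.11), and 0.73 ± 0.19 (adjusted p = 0.019) without PBS_SAL 105. Its close relative Mgl2 rose by 1.21 ± 0.15 in HDM_CP against PBS_CP (adjusted p = 1.9e-05). The ratio of Clec10a to Mgl2 in TPM had medians of 0.146 in HDM_CP, 0.145 in HDM_SAL, 0.167 in PBS_CP and 0.171 in PBS_SAL. The counting could have shared reads between the 2 genes.

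Cd163 (chromosome 6, 124281615 to 124307486, plus strand) encodes the receptor that takes up haemoglobin bound to haptoglobin. It ranged from 11.3 to 33.3 CPM in HDM_CP (median 17.7), from 9.35 to 18.9 in HDM_SAL (median 14.4), from 5.81 to 8.99 in PBS_CP (median 7.70) and from 4.39 to 12.9 in PBS_SAL (median 9.38). HDM_CP and PBS_CP did not overlap, and the highest library of all was HDM_CP 97, which was the fourth of the 7 for Arg1. Cd163 rose by 1.38 ± 0.23 in HDM_CP against PBS_CP (adjusted p = 0.0004) and by 1.10 ± 0.23 in HDM_CP against PBS_SAL (adjusted p = 0.0012). HDM_SAL against PBS_SAL gave 0.63 ± 0.23 (adjusted p = 0.12) and HDM_CP against HDM_SAL gave 0.47 ± 0.23 (adjusted p = 0.52).

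Folr2 (chromosome 7, 101489195 to 101506401, minus strand), folate receptor beta, is found on resident tissue macrophages. It ranged from 2.78 to 8.96 CPM in HDM_CP (median 7.72), from 2.27 to 7.09 in HDM_SAL (median 5.66), from 1.58 to 3.17 in PBS_CP (median 2.54) and from 1.35 to 2.96 in PBS_SAL (median 1.62). In each HDM group a single low library, HDM_CP 96 and HDM_SAL 100, fell in the PBS range. Folr2 rose by 1.83 ± 0.25 in HDM_CP against PBS_SAL (adjusted p = 2e-05), by 1.54 ± 0.25 in HDM_CP against PBS_CP (adjusted p = 0.00029) and by 1.41 ± 0.26 in HDM_SAL against PBS_SAL (adjusted p = 0.0018). That last call held under 40 of 41 alternatives and was lost without HDM_SAL 50, 54 and 99 (1.24 ± 0.31, adjusted p = 0.12). An antisense lncRNA, Gm10602, overlaps Folr2 with a mean of 2.71 TPM against 8.48 TPM for Folr2, and their reads cannot be told apart, since no source says that strand was used in counting.

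Pdcd1lg2 and Cd200r1 act in inhibitory signalling to T cells and myeloid cells. Pdcd1lg2 (chromosome 19, 29388319 to 29448561, plus strand) encodes PD-L2, a ligand of the inhibitory T cell receptor PD-1. The HDM_CP libraries held 1.19 CPM (45), 1.73 (96), 3.34 (66), 3.91 (97), 5.80 (49), 9.65 (98) and 12.96 (67), nearly the order seen for Arg1, and HDM_SAL held 1.11 to 4.33 CPM (median 1.58), highest in numbers 99 and 72. PBS_CP held 0.429 to 1.35 CPM (median 0.945) and PBS_SAL 0.852 to 1.21 (median 1.04), and only the lowest HDM_CP library reached them. Pdcd1lg2 rose by 2.47 ± 0.42 in HDM_CP against PBS_CP (5.52-fold, adjusted p = 0.00052) and by 2.40 ± 0.42 in HDM_CP against PBS_SAL (adjusted p = 0.00024). By limma on log2(TPM + 1) these were 1.55 ± 0.32 (adjusted p = 0.0032) and 1.51 ± 0.32 (adjusted p = 0.0015). HDM_SAL against PBS_SAL gave 1.10 ± 0.42 (adjusted p = 0.13) and HDM_CP against HDM_SAL gave 1.3 ± 0.42 (adjusted p = 0.25). The antisense lncRNA A930007I19Rik overlaps it with a mean of 5.69 TPM, above the 3.10 TPM of Pdcd1lg2 itself, and the 2 cannot be told apart without strand.

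Pdcd1, which encodes the receptor PD-1, rose by 2.28 ± 0.38 in HDM_CP against PBS_CP (adjusted p = 0.0004) and by 1.83 ± 0.37 in HDM_CP against PBS_SAL (adjusted p = 0.001). It had means of 2.62 ± 1.43 CPM in HDM_CP, 1.03 ± 0.34 in HDM_SAL, 0.537 ± 0.162 in PBS_CP and 0.739 ± 0.597 in PBS_SAL (SD, n = 7, 6, 7 and 7). Cd274, which encodes the other PD-1 ligand, PD-L1, averaged 34.8 ± 7.0 CPM in HDM_CP and 34.3 ± 10.8 in HDM_SAL, against 31.2 ± 3.5 in PBS_CP and 32.4 ± 5.3 in PBS_SAL. HDM_CP against HDM_SAL gave 0.02 ± 0.15 (adjusted p = 0.98). The ratio of Pdcd1lg2 to Cd274 in TPM had a median of 0.299 in HDM_CP (0.0959 to 0.701), 0.0972 in HDM_SAL, 0.0684 in PBS_CP and 0.0683 in PBS_SAL.

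Cd200r1 (chromosome 16, 44586099 to 44615341, plus strand) encodes the inhibitory receptor for CD200 on myeloid cells. It ranged from 4.86 to 15.3 CPM in HDM_CP (median 8.83), from 4.76 to 9.48 in HDM_SAL (median 5.42), from 3.35 to 6.49 in PBS_CP (median 4.56) and from 2.89 to 6.34 in PBS_SAL (median 3.65). The 3 highest HDM_CP libraries, numbers 98, 67 and 49, were also the 3 highest for Arg1 and Pdcd1lg2. Cd200r1 rose by 1.31 ± 0.23 in HDM_CP against PBS_SAL (adjusted p = 0.00024) and by 1.08 ± 0.23 in HDM_CP against PBS_CP (adjusted p = 0.0032). HDM_SAL against PBS_SAL gave 0.66 ± 0.24 (adjusted p = 0.10), and 0.81 ± 0.23 (adjusted p = 0.036) without PBS_SAL 105. HDM_CP against HDM_SAL gave 0.65 ± 0.24 (adjusted p = 0.33). Related receptor genes of its family could share reads with it.

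Tmem26 (chromosome 10, 68559476 to 68618480, plus strand) encodes a transmembrane protein used as a marker of alternatively activated mouse macrophages and of beige fat. It held 3.18 to 10.7 CPM in HDM_CP (median 8.28), 0.948 to 6.41 in HDM_SAL (median 4.98), 3.30 to 4.69 in PBS_CP (median 3.58) and 2.82 to 5.96 in PBS_SAL (median 3.72). HDM_CP overlapped the range of every other group, with 4 of 7 libraries above all of HDM_SAL and number 96 below all of PBS_CP. It rose by 0.95 ± 0.29 in HDM_CP against PBS_CP (adjusted p = 0.038) and by 0.92 ± 0.29 in HDM_CP against PBS_SAL (adjusted p = 0.028). Leaving out any of HDM_CP 49, 67, 97 or 98 or PBS_CP 57, 58, 59, 75, 76 or 102 ended the call against PBS_CP (adjusted p from 0.052 to 0.10), and leaving out HDM_CP 49, 67 or 98 or PBS_SAL 61, 81 or 104 ended that against PBS_SAL (adjusted p from 0.05 to 0.075). Neither call passed without the filter on low counts (adjusted p = 0.067 against PBS_CP and 0.051 against PBS_SAL) and without the 3 libraries under 60 M (0.078 and 0.095). The call against PBS_CP was lost with runs of library numbers as a block (0.92 ± 0.30, adjusted p = 0.058) and without HDM_SAL 50, 54 and 99 (adjusted p = 0.05). Its CPM per TPM varied 3.87-fold over the libraries, from 0.681 in HDM_SAL 52 to 2.64 in HDM_SAL 54, against at most 1.22-fold for any other member, so its estimated counts and its TPM did not rank the libraries alike. Without HDM_SAL 52, Tmem26 gave 0.40 ± 0.24 in HDM_SAL against PBS_SAL (adjusted p = 0.33) and 0.52 ± 0.24 in HDM_CP against HDM_SAL (adjusted p = 0.43), where all libraries gave 0.19 ± 0.30 and 0.73 ± 0.30.

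Flt1 (chromosome 5, 147498414 to 147662821, minus strand), VEGF receptor 1, is carried by blood vessel endothelium as well as by monocytes and macrophages. It held 270 to 383 CPM in HDM_CP (median 298), 222 to 417 in HDM_SAL (median 326), 325 to 393 in PBS_CP (median 357) and 341 to 394 in PBS_SAL (median 378). It was not called in any of the 6 comparisons. It gave -0.23 ± 0.09 in HDM_CP against PBS_SAL (adjusted p = 0.093), where 5 of 7 HDM_CP libraries lay below all of PBS_SAL, and -0.17 ± 0.09 in HDM_CP against PBS_CP (adjusted p = 0.29). That difference against PBS_SAL was called without HDM_CP 66 (-0.29 ± 0.09, adjusted p = 0.025) and without HDM_SAL 54 (-0.23 ± 0.07, adjusted p = 0.034) or HDM_SAL 50, 54 and 99 together (-0.235 ± 0.066, adjusted p = 0.015), and also by limma voom (adjusted p = 0.026) and with only the groups compared (adjusted p = 0.037). Flt1 did not rise with the rest of the set in these lungs, and over the libraries it went with vessel genes. Which cells its transcripts came from was not tested. By deviations from the group means over the 27 libraries, the genes most like Flt1 were the endothelial genes Eng (r = 0.945), Epas1 (0.916) and Adgrl4 (0.916). Its ratio to Kdr, the VEGF receptor 2 gene, in TPM had medians of 0.508 in HDM_CP, 0.518 in HDM_SAL, 0.455 in PBS_CP and 0.50 in PBS_SAL.

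The 9 genes were chosen with earlier results of these data known, so the counts that follow are not independent of that choice. Counted together, HDM_CP against PBS_SAL called 8 of the 9 genes higher and 0 lower. Of all genes tested, 14.5% were called there, 8.57% higher and 5.94% lower, and the median log2 fold change of the 9 was 1.10 against 0.01 for all genes. HDM_CP against PBS_CP also called 8 higher and 0 lower, where 7.88% of all genes were called, 5.58% higher and 2.3% lower, and the median of the 9 was 1.08. These comparisons share their HDM_CP libraries. HDM_SAL against PBS_SAL called 3 higher (Arg1, Mrc1 and Folr2) and 0 lower, where 5.37% of all genes were called, 3.12% higher and 2.25% lower, and the median of the 9 was 0.63. Without HDM_SAL 50, 54 and 99, an alternative chosen after seeing the data that left 3 HDM_SAL libraries, edgeR called 0 of the 9 there and 34 of all genes, with 5 of the 9 and 2143 of all genes at an unadjusted p under 0.05. The same omission left 7 of the 9 called higher and 0 lower in HDM_CP against PBS_CP. In HDM_CP against PBS_SAL it left 8 higher and 1 lower, Flt1. Over all alternatives except those leaving out 1 library, this omission included, 1192 to 2667 of all genes were called in HDM_CP against PBS_CP. The range in HDM_CP against PBS_SAL was 2526 to 4433. On log2(TPM + 1) with limma the split of all called genes in HDM_SAL against PBS_SAL was 522 higher and 852 lower, against 767 higher and 554 lower by edgeR. In HDM_CP against PBS_CP the groups did not overlap for Arg1, Clec10a and Cd163, all higher, as for 1.72% of all genes in either direction and 1.38% higher. In HDM_CP against PBS_SAL they did not overlap for Arg1 alone (3.18% of all genes in either direction, 2.14% higher), and likewise in HDM_SAL against PBS_SAL (1.93% in either direction, 1.18% higher).

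Combustion products without allergen left no member called. In PBS_CP against PBS_SAL edgeR called 0 of 9 (0.00814% of all genes called, which is 2 genes), as did DESeq2 and limma voom. Of the 9, 0 had an unadjusted p under 0.05 (1335 of all genes did), and the fold changes ran from -0.28 for Cd163 to 0.29 for Folr2. After allergen, HDM_CP against HDM_SAL likewise called 0 of 9 by edgeR, DESeq2 or limma voom, with 1 of all genes called by edgeR (0.00407%). There 8 of 9 fold changes were positive, the median was 0.47 against 0.00 for all genes, and 5 members had an unadjusted p under 0.05 (2377 of all genes did), namely Arg1, Mrc1, Pdcd1lg2, Cd200r1 and Tmem26. The interaction, which tests whether CP changed a gene differently after HDM than after PBS, called 0 of 9 and 0 of all genes by edgeR (0%), with 2 members, Pdcd1lg2 (1.37 ± 0.59, adjusted p = 0.77) and Cd163 (0.75 ± 0.32, adjusted p = 0.77), and 1563 genes at an unadjusted p under 0.05. DESeq2 called 0 of 9 and 6 of all genes in that test. For Arg1 the interaction was 1.71 ± 0.86 (adjusted p = 0.77).

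**Figure D2:**
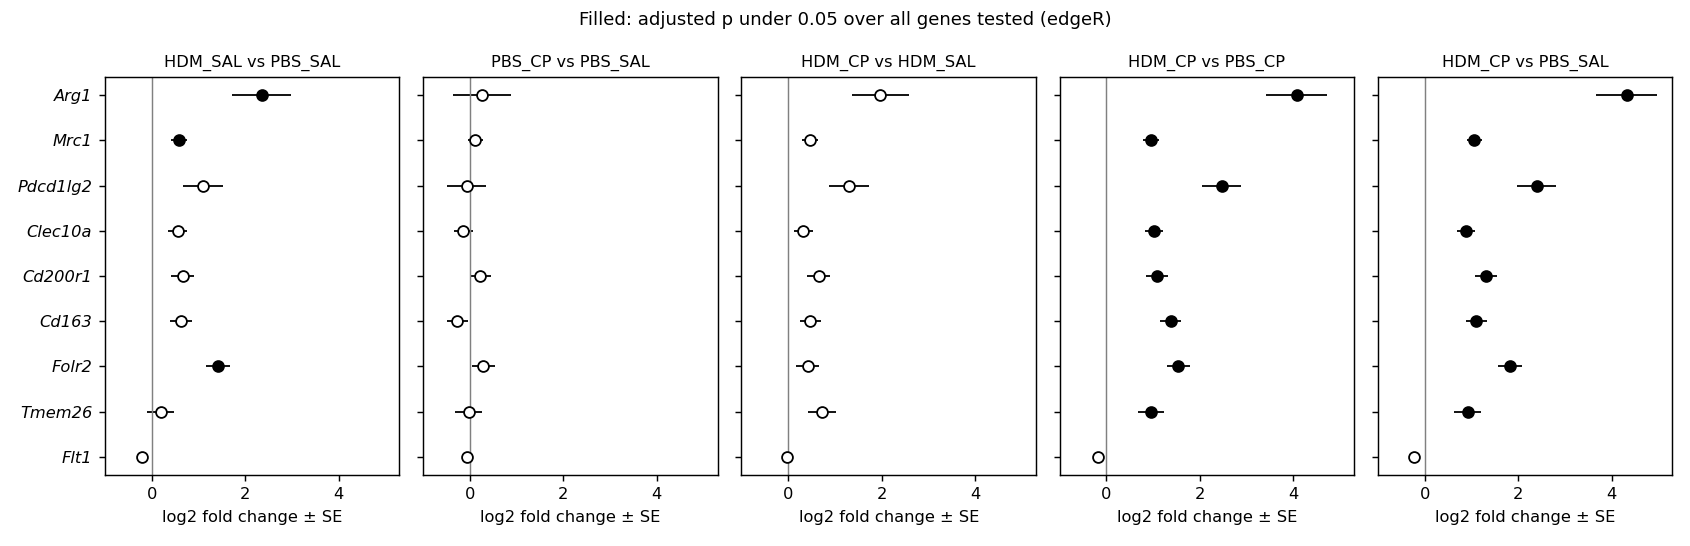
Log2 fold change with its standard error for the 9 genes in each of 5 comparisons, the group named first over the second; filled points are called. The filled points number 8 in HDM_CP against PBS_CP and 8 in HDM_CP against PBS_SAL, 3 in HDM_SAL against PBS_SAL and 0 in both comparisons of CP with saline.

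By TPM, Flt1 had the highest mean of the 9 genes in every group, at 100.0 ± 13.01 TPM in HDM_CP, 99.5 ± 23.6 in HDM_SAL, 114 ± 7 in PBS_CP and 118 ± 7 in PBS_SAL (SD). Mrc1 was next in every group, at 49.2 ± 13.5 TPM in HDM_CP, 34.9 ± 7.1 in HDM_SAL, 25.98 ± 5.13 in PBS_CP and 23.5 ± 5.6 in PBS_SAL. Arg1 took the third place in HDM_CP, at 48.1 ± 52.7 TPM, and in HDM_SAL, at 11.7 ± 11.3, but the seventh in PBS_CP, at 2.86 ± 1.06, and in PBS_SAL, at 2.47 ± 0.76. The range of Flt1 lay above that of Mrc1 in every group, but Arg1 reached it in HDM_CP, with 93.1 TPM in number 67 and 144.8 in number 98. Mrc1 overlapped the third gene in both HDM groups and in neither PBS group. The third place of Arg1 in HDM_SAL rested on number 99, at 34.3 TPM. Without it Arg1 averaged 7.16 ± 2.63 TPM (SD, n = 5) and stood below Folr2 at 9.82 ± 3.63 and Clec10a at 9.41 ± 4.19, and by the median of all 6 libraries, 7.78 TPM, it also stood below Folr2 (11.2) and Clec10a (8.10). From the third place down, each gene's range overlapped that of its neighbour in the order in every group. The ratio of Arg1 to Mrc1 in TPM had a median of 0.508 in HDM_CP (0.181 to 2.22), 0.238 in HDM_SAL (0.142 to 0.800), 0.103 in PBS_CP and 0.0995 in PBS_SAL. Set against Csf1r, the receptor gene that macrophages and monocytes share, Mrc1 had median ratios of 0.540 in HDM_CP, 0.413 in HDM_SAL, 0.292 in PBS_CP and 0.268 in PBS_SAL.

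**Figure D3:**
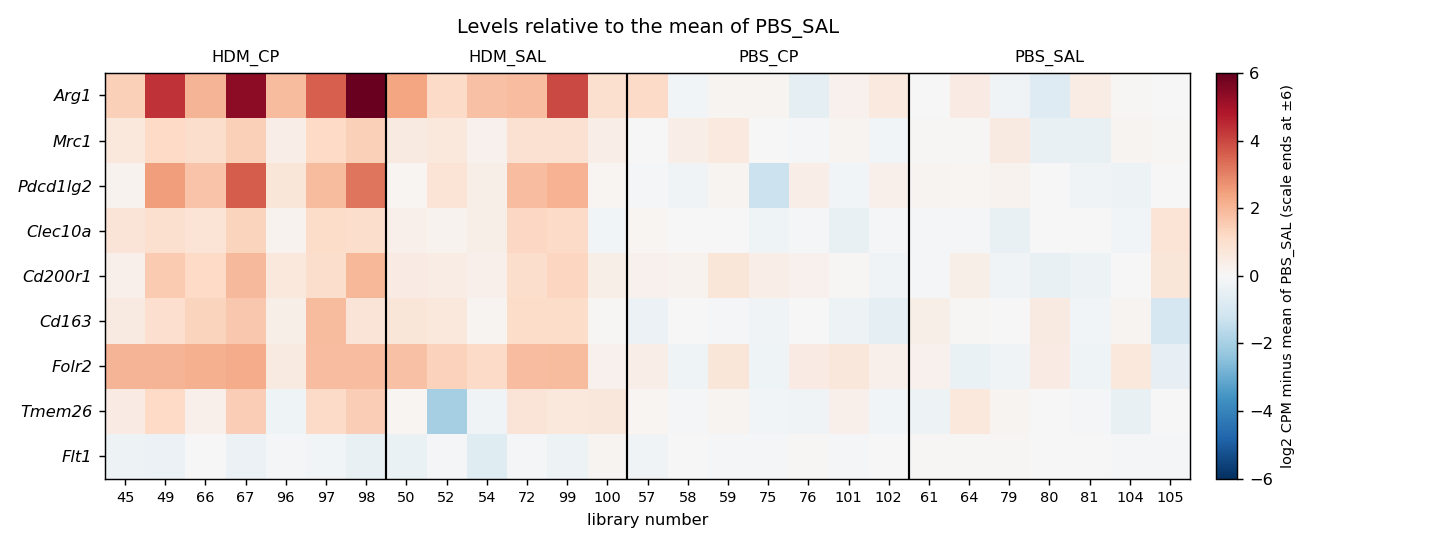
Log2 CPM of each gene in each library minus the gene's mean in PBS_SAL, with libraries ordered by number within a group. Arg1 and Pdcd1lg2 have their 4 highest HDM_CP libraries in numbers 49, 67, 97 and 98, Folr2 is evenly high across HDM_CP except in number 96, and Flt1 is pale throughout.

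Within HDM_CP (n = 7), the log2 CPM of Arg1 was positively correlated with that of 7 of the other 8 members, and no relation passed adjustment over all genes. The correlation with Arg1 was Pearson's r = 0.946 and Spearman's rho = 0.964 for Pdcd1lg2 (exact permutation p = 0.0024 and 0.0028, adjusted over all genes 0.16 and 0.14) and 0.936 and 0.964 for Cd200r1 (exact permutation p = 0.0052 and 0.0028, adjusted 0.18 and 0.14). For Tmem26 they were 0.891 and 0.857, for Mrc1 0.883 and 0.893 and for Clec10a 0.727 and 0.786 (exact permutation p between 0.0095 and 0.048, adjusted between 0.21 and 0.37). Cd163 (0.346 and 0.429) and Folr2 (0.350 and 0.286) followed Arg1 less closely, and Flt1 ran the other way (-0.695 and -0.750), with exact permutation p between 0.066 and 0.57. Without the 2 libraries farthest from the median of Arg1, r was 0.934 for Pdcd1lg2, 0.883 for Cd200r1, 0.939 for Tmem26 and 0.826 for Mrc1. In all, 16 relations were computed in the 2 HDM groups, and none passed that adjustment.

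Within HDM_SAL (n = 6), r with Arg1 ran from 0.403 for Tmem26 to 0.783 for Cd200r1 among the 7 members other than Flt1 (exact permutation p from 0.050 to 0.38, adjusted 0.97). Spearman's rho ran from 0.143 for Tmem26 to 0.886 for Folr2 (exact permutation p from 0.033 to 0.80, adjusted from 0.93 to 0.97). Flt1 gave r = -0.36 and rho = -0.60. Without the 2 libraries farthest from the median of Arg1, 99 among them, r was -0.26 for Pdcd1lg2, -0.01 for Mrc1 and 0.19 for Cd200r1, so those relations rested on those libraries. Over the 4 libraries left r was 0.51 for Folr2 and 0.81 for Tmem26. These 4 included HDM_SAL 52, where Tmem26 had 0.948 CPM but 1.39 TPM, and no r for Tmem26 was computed without it. Over all pairs of members, deviations from the group means had a median r of 0.570 in the 13 HDM libraries and -0.02 in the 14 PBS libraries, and the closest pair in the HDM libraries was Pdcd1lg2 with Cd200r1 (0.971). These are descriptions of libraries that share exposure, depth and cell makeup.

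**Figure D4:**
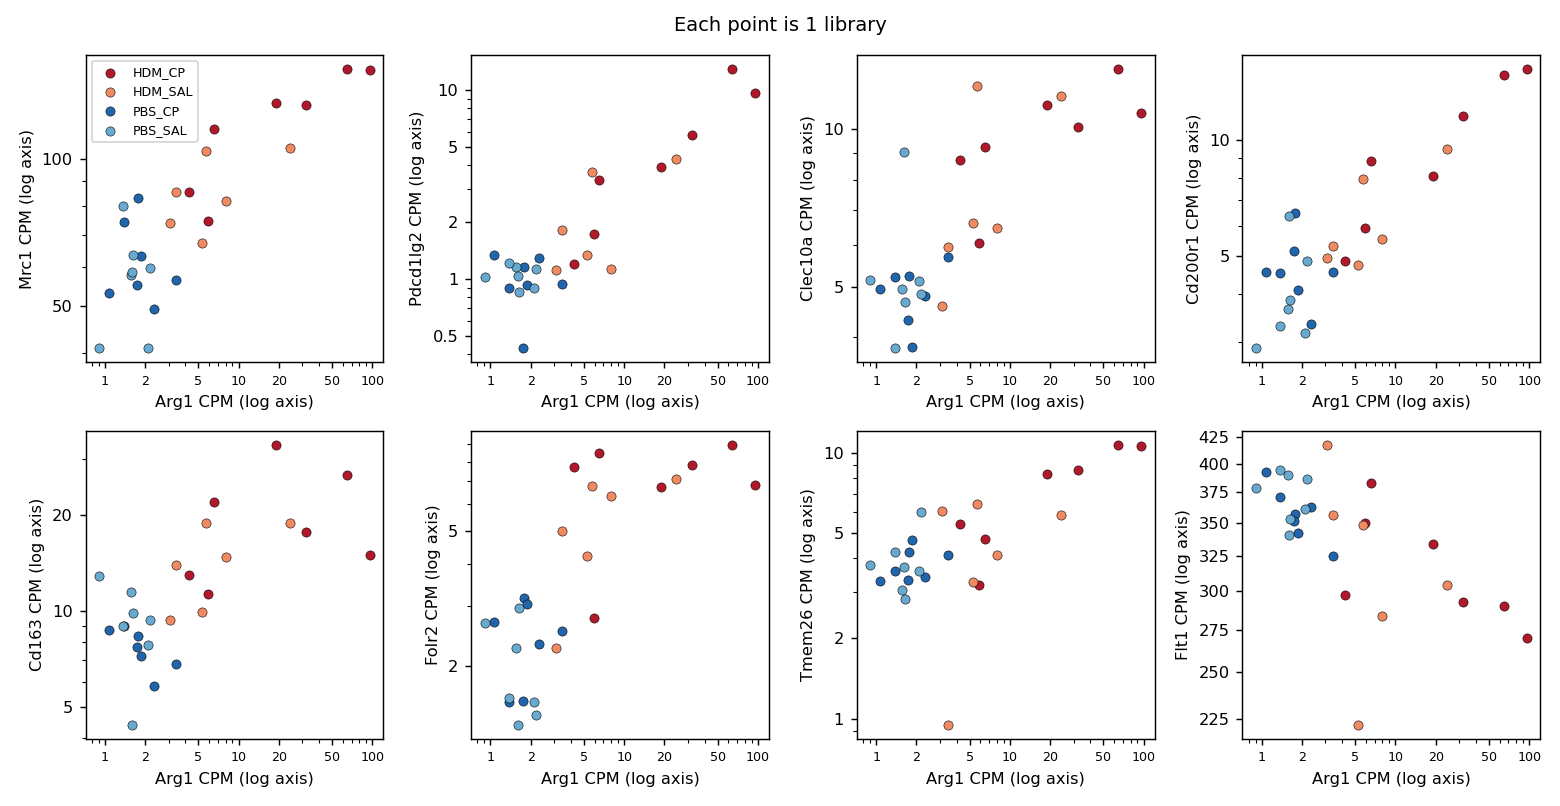
CPM of each of the other 8 genes against that of Arg1 (log axes), 1 point per library. HDM_CP libraries rise along Arg1 for Pdcd1lg2, Cd200r1, Mrc1 and Tmem26, while HDM_CP points for Folr2 are nearly level and those for Flt1 slope down.

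The 4 genes whose log2 CPM was most like that of Arg1 over all 27 libraries, out of 14267 compared, were the chemokine gene Ccl9 (r = 0.969), the lysosomal thiol reductase gene Ifi30 (0.959), the adaptor gene Dok2 (0.959) and the lamin gene Lmnb1 (0.951). By deviations from the group means the 6 most like it were Ccl9 (0.917), Wdr91 (0.881), Ifi30 (0.881), Dok2 (0.877), the lysosomal protease gene Ctsb (0.868) and St6galnac2 (0.866), so Ccl9, Ifi30 and Dok2 stood in both lists. By the same deviations Pdcd1lg2 was most like Jak2 (0.905), Tep1 (0.905) and Ifi30 (0.900), and Cd200r1 most like Clec4a3 (0.916), Pik3r5 (0.908) and the protease gene Ctss (0.906). Mrc1 was most like Ear2 (0.894), Atp6v0d2 (0.873) and the macrophage gene Cd68 (0.866), 2 of which, Ear2 and Atp6v0d2, are used as alveolar macrophage markers. Clec10a was most like Tbxas1 (0.789), Mgl2 (0.781) and C3ar1 (0.756). The gene closest to Cd163 was Fndc3a (0.756), that closest to Folr2 was Ngfr (0.686) and that closest to Tmem26 was Clec4b1 (0.668).

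The lists that follow were also chosen with earlier results of these data known. For comparison, edgeR called 8.57% of all genes higher and 5.94% lower in HDM_CP against PBS_SAL. The shares were 5.58 and 2.3% in HDM_CP against PBS_CP and 3.12 and 2.25% in HDM_SAL against PBS_SAL. At an unadjusted p under 0.05, 2377 of all genes passed in HDM_CP against HDM_SAL and 1335 in PBS_CP against PBS_SAL. DESeq2 called 193 of all genes in HDM_CP against HDM_SAL. Other alternative activation genes were counted from a list of 20, and calls in this and the other lists are edgeR's unless another tool is named. Of these, 16 were higher and 1 lower in HDM_CP against PBS_SAL, with a median log2 fold change of 1.31, 15 higher and 0 lower (1 lower by DESeq2 and by limma voom) in HDM_CP against PBS_CP (median 1.21), and 9 higher and 1 lower in HDM_SAL against PBS_SAL (median 0.92). In HDM_SAL against PBS_SAL the smallest p-values belonged to Retnla, the resistin-like molecule gene (5.77 ± 0.70, adjusted p = 6e-05), the chitinase-like genes Chil3 (2.20 ± 0.30, adjusted p = 0.00017) and Chil4 (6.00 ± 0.98, adjusted p = 0.00091), which could share reads, and the ribonuclease gene Rnase2a (6.28 ± 0.95, adjusted p = 0.00052). In HDM_CP against PBS_CP they belonged to Chil3 (2.96 ± 0.30, adjusted p = 3.9e-06), Mgl2, Rnase2a (5.78 ± 0.86, adjusted p = 0.00023) and Socs1, a feedback inhibitor of cytokine signalling (1.05 ± 0.17, adjusted p = 0.00026). HDM_CP against HDM_SAL called 0 of 20 by edgeR, 0 by limma voom and 5 by DESeq2, with 10 at an unadjusted p under 0.05. Retnla there differed by -0.03 ± 0.59 (adjusted p = 0.99), at 3462 ± 1061 CPM in HDM_CP and 3531 ± 1613 CPM in HDM_SAL (SD). In PBS_CP against PBS_SAL edgeR, DESeq2 and limma voom called 0 of 20, with 3 at an unadjusted p under 0.05 and 14 fold changes positive. Retnla gave 2.11 ± 0.59 in that comparison (edgeR unadjusted p = 0.0015, adjusted p = 0.44). Its interaction was -2.14 ± 0.82 (adjusted p = 0.77).

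Arginine supply and its competing enzymes were read from a list of arginine and polyamine metabolism, of which 22 of 24 genes were tested. Of these, 8 were higher in HDM_CP against PBS_SAL, 8 in HDM_CP against PBS_CP and 5 in HDM_SAL against PBS_SAL, and 0 were lower in each. In HDM_CP against PBS_SAL these included Gatm, which uses arginine for creatine synthesis (2.16 ± 0.26, adjusted p = 6.1e-06), the antizyme inhibitor gene Azin1 (0.49 ± 0.07, adjusted p = 2.5e-05), the mitochondrial arginase gene Arg2 (1.14 ± 0.18, adjusted p = 5.6e-05) and Aldh18a1 of proline synthesis (0.47 ± 0.08, adjusted p = 0.00021). The 5 in HDM_SAL against PBS_SAL were Gatm (1.75 ± 0.27, adjusted p = 0.00039), Pycr1 of proline synthesis (0.73 ± 0.16, adjusted p = 0.0079), Azin1, Aldh18a1 and Arg2 (0.31 to 0.65, adjusted p from 0.01 to 0.034). In HDM_CP against PBS_CP the arginine transporter gene Slc7a2 rose by 0.76 ± 0.13 (adjusted p = 0.00064), at 97.0 ± 22.3 CPM in HDM_CP against 57.2 ± 2.9 in PBS_CP (SD, n = 7 each). Nos2, which encodes the inducible nitric oxide synthase that uses the same substrate, differed by 0.72 ± 0.22 in HDM_CP against HDM_SAL (adjusted p = 0.21), where 0 of 22 were called by edgeR, DESeq2 or limma voom and 5 had an unadjusted p under 0.05.

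The ratio of the 2 arginase transcripts, and that of Arg1 to Nos2, had higher medians in both HDM groups than in both PBS groups, and no test was run on them. Arg1 over Arg2 in TPM had a median of 2.46 in HDM_CP (1.05 to 11.2), 1.44 in HDM_SAL (0.700 to 4.35), 0.561 in PBS_CP (0.246 to 0.798) and 0.534 in PBS_SAL (0.400 to 1.08). Arg1 over Nos2 had a median of 8.02 in HDM_CP (1.23 to 25.1), 2.98 in HDM_SAL (0.997 to 11.8), 0.669 in PBS_CP (0.534 to 1.56) and 0.742 in PBS_SAL (0.504 to 1.98). The ratios of HDM_CP and PBS_CP did not overlap for Arg1 over Arg2, and those of HDM_CP and HDM_SAL overlapped for both.

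**Figure D5:**
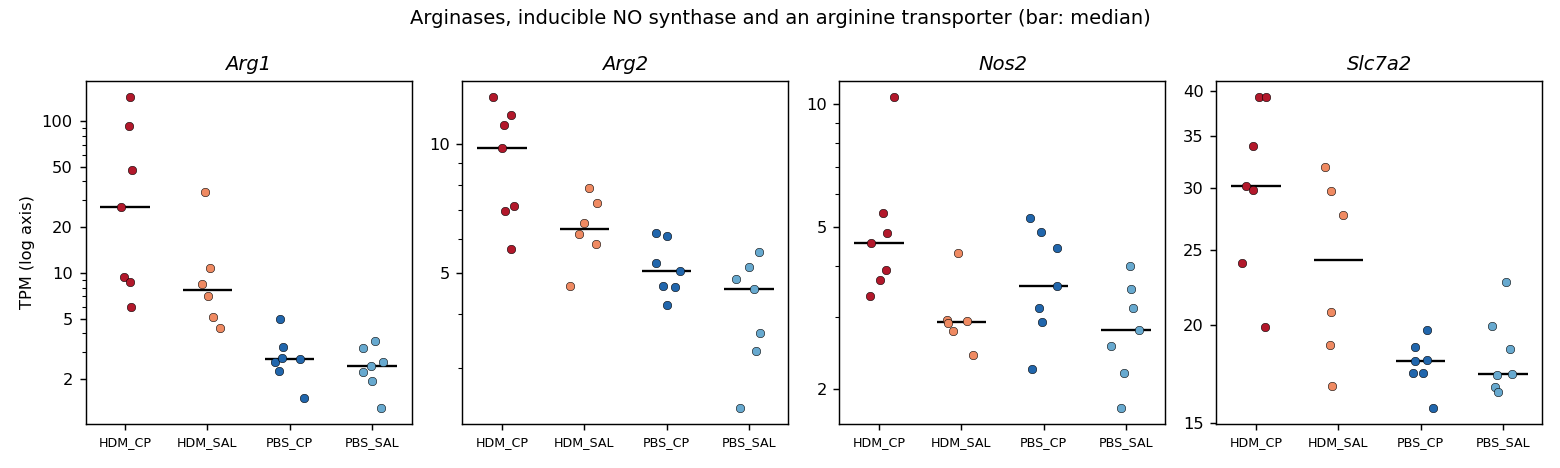
TPM (log axes) of Arg1, Arg2, Nos2 and the arginine transporter gene Slc7a2 in every library by group, with a bar at the median. The median of Arg1 is 27.2 TPM in HDM_CP, 7.78 in HDM_SAL, 2.71 in PBS_CP and 2.45 in PBS_SAL, a wider spread of medians than for the other 3 genes.

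Upstream of the members, 10 of 21 genes of type 2 signalling were higher and 1 lower in HDM_CP against PBS_SAL, 6 were higher in HDM_CP against PBS_CP and 3 in HDM_SAL against PBS_SAL, with 0 lower in both by edgeR and 1 lower in HDM_SAL against PBS_SAL by DESeq2 and by limma voom. The cytokine gene Il13 rose by 4.59 ± 0.82 in HDM_CP against PBS_SAL (adjusted p = 0.0003), by 3.24 ± 0.74 in HDM_CP against PBS_CP (adjusted p = 0.0058) and by 3.81 ± 0.83 in HDM_SAL against PBS_SAL (adjusted p = 0.0071). Its levels were low, at 0.260 to 2.16 CPM in HDM_CP, 0.0723 to 1.06 in HDM_SAL, 0 to 0.229 in PBS_CP and 0 to 0.213 in PBS_SAL. Il13ra2, which encodes a decoy receptor for IL-13, was called higher in the same 3 comparisons, and all PBS_CP libraries were at 0 for it, so no fold is given there. Ppargc1b, a coactivator used in the oxidative metabolism of alternatively activated cells, was also called in all 3 and rose by 1.06 ± 0.18 in HDM_CP against PBS_SAL (adjusted p = 0.00013). Il4ra differed by 0.26 ± 0.10 in HDM_CP against HDM_SAL (adjusted p = 0.33), where 0 of 21 were called by edgeR, DESeq2 or limma voom and 6 had an unadjusted p under 0.05. Among 20 tested ligands, receptors and relatives of the members, 3 were higher and 3 lower in HDM_CP against PBS_SAL, 2 and 2 in HDM_CP against PBS_CP. In HDM_SAL against PBS_SAL 1 (Mgl2) was higher and 1 (Flt4) lower. In the same order, the medians of their log2 fold changes were -0.07, 0.04 and -0.10. Of all genes, 8.57, 5.58 and 3.12% were called higher and 5.94, 2.3 and 2.25% lower. HDM_CP against HDM_SAL called 0 of the 20 by edgeR and limma voom and 2 by DESeq2, with 4 at an unadjusted p under 0.05. Vegfa, which encodes the ligand of Flt1 and Kdr, fell by 0.34 ± 0.08 in HDM_CP against PBS_CP (adjusted p = 0.0072), and Kdr fell by 0.29 ± 0.09 (adjusted p = 0.04).

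Genes of classical activation, the state linked to interferon and microbial products, were counted from a list of 18. Of these, 9 were higher and 1 lower in HDM_CP against PBS_SAL, 6 higher and 0 lower (1 lower by DESeq2 and by limma voom) in HDM_CP against PBS_CP, and 1 higher and 0 lower in HDM_SAL against PBS_SAL, which was the costimulator gene Cd86 (0.48 ± 0.14, adjusted p = 0.037). In HDM_CP against PBS_CP the called genes with the smallest p-values were Cd86 (0.56 ± 0.13), Irf5 (0.48 ± 0.11), the interferon-induced chemokine gene Cxcl10 (1.42 ± 0.35) and Socs3 (0.44 ± 0.12), with adjusted p from 0.008 to 0.016. HDM_CP against HDM_SAL called 0 of 18 by edgeR, DESeq2 or limma voom, and 8 had an unadjusted p under 0.05 (2377 of all genes did). PBS_CP against PBS_SAL also called 0 of 18 by these tools, with 9 fold changes positive. There 5 had an unadjusted p under 0.05 (1335 of all genes did).

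Markers of the cells that could hold these transcripts moved in the same comparisons. Some lists share genes, so their counts are not independent. Chil3 and Fn1 of the monocyte list were also counted among the other alternative activation genes. So were Mgl2 and Ccl22 of the dendritic cell list and Alox15 of the eosinophil list. Ear2 and Siglecf stand in both the alveolar macrophage and the eosinophil list. Itgax stands in both the alveolar macrophage and the dendritic cell list. Il13 was counted both in type 2 signalling and among group 2 innate lymphoid and T helper 2 markers. Mgl2, Kdr and Flt4 were also counted among the ligands, receptors and relatives. Not every shared gene is named here. Of 16 monocyte and recruited macrophage markers, 9 were higher in HDM_CP against PBS_CP, 9 in HDM_CP against PBS_SAL and 2 (Chil3 and Ccr2) in HDM_SAL against PBS_SAL. Their summed level was 2880 to 7820 TPM in HDM_CP, 2630 to 4550 in HDM_SAL, 1590 to 2090 in PBS_CP and 1570 to 2110 in PBS_SAL. Ccr2, the monocyte chemokine receptor gene, rose by 0.82 ± 0.11 in HDM_CP against PBS_CP (adjusted p = 5.5e-05), and Trem2 by 1.82 ± 0.33 (adjusted p = 0.00086). Of 18 interstitial macrophage markers, 7 were higher in HDM_CP against PBS_CP, 8 higher and 2 lower in HDM_CP against PBS_SAL, and 3 (C1qa, C1qc and F13a1) higher in HDM_SAL against PBS_SAL. The smallest p-values belonged to the complement genes C1qa (1.71 ± 0.25 in HDM_CP against PBS_CP) and C1qc (1.65 ± 0.24). The 18 interstitial markers summed to 5910 to 8360 TPM in HDM_CP, 6690 to 9230 in HDM_SAL, 7210 to 9000 in PBS_CP and 8380 to 10300 in PBS_SAL. These ranges overlapped between HDM_CP and the other groups except PBS_SAL, below which HDM_CP lay. A sum follows its most abundant genes, so it can be lower where 8 markers were called higher. Which genes set this sum was not examined. Of 14 alveolar macrophage markers, 4 were higher and 2 lower in HDM_CP against PBS_CP, 6 and 5 in HDM_CP against PBS_SAL, and 1 (Krt79) and 2 (Bhlhe41 and Mertk) in HDM_SAL against PBS_SAL. The sums were 650 to 1100 TPM in HDM_CP, 614 to 862 in HDM_SAL, 558 to 702 in PBS_CP and 562 to 753 in PBS_SAL.

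Dendritic cells also carry Pdcd1lg2, Clec10a and Mrc1. Of 15 tested dendritic cell markers, 8 were higher in HDM_CP against PBS_CP, 10 in HDM_CP against PBS_SAL and 3 (Mgl2, Xcr1 and Flt3) in HDM_SAL against PBS_SAL. The 16 listed summed to 370 to 718 TPM in HDM_CP, 319 to 514 in HDM_SAL, 344 to 426 in PBS_CP and 339 to 420 in PBS_SAL. Of 11 tested neutrophil markers, Retnlg, Mmp8, Ltf and Clec4d were higher in HDM_CP against PBS_CP and against PBS_SAL. Ltf and Retnlg were higher in HDM_SAL against PBS_SAL, where only 5 of the 11 fold changes were positive and the median was -0.326. The 12 listed summed to 244 to 776 TPM in HDM_CP, 174 to 265 in HDM_SAL, 155 to 303 in PBS_CP and 115 to 305 in PBS_SAL. Of 8 tested eosinophil markers, Ear2, Alox15, Ccr3 and Prg2 were higher in HDM_CP against PBS_CP. Ear2, Alox15, Ccr3 and Ear6 were higher and Ear1 lower in HDM_CP against PBS_SAL, and edgeR called 0 in HDM_SAL against PBS_SAL, where DESeq2 and limma voom each called 1 higher and 1 had an unadjusted p under 0.05. The 9 listed summed to 195 to 607 TPM in HDM_CP, 205 to 361 in HDM_SAL, 117 to 242 in PBS_CP and 159 to 266 in PBS_SAL. Markers of group 2 innate lymphoid and T helper 2 cells were called in 6 of 14 in HDM_CP against PBS_CP (all higher, with 1 lower besides by DESeq2 and by limma voom), in 6 higher and 2 lower in HDM_CP against PBS_SAL, and in 1 each way in HDM_SAL against PBS_SAL (Il13 higher, Rora lower).

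For Flt1, 18 blood endothelial markers were counted, of which 3 were lower in HDM_CP against PBS_CP, 7 in HDM_CP against PBS_SAL and 4 in HDM_SAL against PBS_SAL, with 0 higher in each. Robo4 and Erg were lower in all 3 comparisons, Kdr was the third in HDM_CP against PBS_CP, and Ramp2 (-0.36 ± 0.09, adjusted p = 0.014) and Ednrb (-0.37 ± 0.10, adjusted p = 0.03) were the other two in HDM_SAL against PBS_SAL. Without HDM_SAL 50, 54 and 99 the numbers lower were 7 in HDM_CP against PBS_CP, 10 in HDM_CP against PBS_SAL and 0 in HDM_SAL against PBS_SAL. Their sum was 5370 to 6390 TPM in HDM_CP, 4180 to 7940 in HDM_SAL, 6170 to 6740 in PBS_CP and 6390 to 7000 in PBS_SAL. Of 10 lymphatic endothelial markers, Ccl21a and Flt4 were lower in HDM_CP against PBS_SAL and in HDM_SAL against PBS_SAL, and edgeR called 0 in HDM_CP against PBS_CP, where 3 had an unadjusted p under 0.05 and DESeq2 and limma voom each called 1 higher and 1 lower. Of 11 ciliated and club cell markers, Scgb3a1 was higher and Cyp2f2 lower in each comparison of HDM_CP with a PBS group. In HDM_SAL against PBS_SAL edgeR and DESeq2 called 0 of them and limma voom 1 higher, and 5 had an unadjusted p under 0.05. Of 8 tested mast cell and basophil markers edgeR and DESeq2 called 0 in every comparison, with at most 3 at an unadjusted p under 0.05, and limma voom called 1 lower in HDM_CP against PBS_CP. Of 7 erythroid genes 0 were called in any comparison by edgeR, DESeq2 or limma voom, and 0 had an unadjusted p under 0.05. In PBS_CP against PBS_SAL none of these lists held a called gene by edgeR, DESeq2 or limma voom. At an unadjusted p under 0.05 each of these marker lists held at most 2 genes there, where 1335 of all genes passed that limit. In HDM_CP against HDM_SAL edgeR and limma voom called none, and DESeq2 called 4 monocyte, 3 dendritic cell, 2 neutrophil, 1 interstitial macrophage and 1 innate lymphoid or T helper 2 marker, all higher. Counts at an unadjusted p under 0.05 in HDM_CP against HDM_SAL took both directions together, and 2377 of 24581 genes passed that limit. The counts were 10 of 16 monocyte, 9 of 18 interstitial macrophage, 3 of 14 alveolar macrophage and 8 of 15 dendritic cell markers. There were also 8 of 11 neutrophil, 2 of 8 eosinophil and 7 of 14 innate lymphoid or T helper 2 markers. Of 18 blood endothelial markers 0 passed. Fold changes were positive in 14 of 16 monocyte and 12 of 18 interstitial macrophage markers. So were 9 of 14 alveolar macrophage and 11 of 14 innate lymphoid or T helper 2 fold changes. Gata3 was lower (-0.30 ± 0.11, edgeR unadjusted p = 0.011). Without HDM_SAL 50, 54 and 99, HDM_SAL against PBS_SAL called 3 of the other alternative activation genes, 1 gene of arginine metabolism and 1 monocyte marker, all higher, and none of the other lists held a call by edgeR. No listed marker was at 0 in all libraries, and the part of these cell types in the levels of the 9 genes was not tested.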

How the data were processed

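Whole-lung polyA RNA of 27 mice was sequenced. Per the submitters' processing notes, reads were aligned to GRCm39 with STAR (version not given in the sources used here) and quantified with StringTie 2. The authors deposited an estimated count table, in whole numbers, and a TPM table per gene, and the name of the deposited tables gives GENCODE M33. The totals of estimated counts exceeded the planned read pairs, for a reason not given in the sources used here. The genes without a symbol, 310 in number with 0.06% of the counts, were left out. In R 4.3.3, edgeR 4.0.16 was run on the deposited estimated counts of all 27 libraries (filterByExpr with a minimum count of 10, TMM, a robust quasi-likelihood fit with 4 group means, two-sided F tests, Benjamini-Hochberg adjustment over 24581 genes) for 6 comparisons. The standard error is the absolute log2 fold change over the root of F. Log2 CPM had a prior count of 2. The steps were tested on simulated data. Alternatives used DESeq2 1.42.0, limma 3.58.1 on weighted counts or on TPM, other scaling and filters, a block for runs of library numbers, each library left out and, chosen after seeing the data, the libraries under 60 M or over 3% mitochondrial left out.

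The 9 genes and 18 gene lists, the 9 included, were chosen with earlier results of these data known. From each list and comparison, all called genes were named where 5 or fewer were called, otherwise some of the 4 with the smallest p, and where none was called, any of the first 3 measured genes in list order. Genes like Arg1 were the 6 with the highest Pearson correlation (the first 4 are given for the measure over all libraries, and the rest of those 6 are not reported here), and for other members up to 3, among genes whose mean log2 CPM was not below 0, without predicted genes and antigen receptor segments. Promoter windows came from RefSeq.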

Additional observations from a re-analysis of the deposited data

Results flagged for a closer look

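In 3 of 36 pairs of gene and group, 1 library stood far from the other libraries of its group. For normally distributed values chance alone marks about 1 pair in 20. Whether CPM follow that distribution was not tested, and the pairs share libraries. Arg1 had 24.3 CPM in HDM_SAL 99, and the next highest HDM_SAL library had 8.00 CPM. Clec10a had 9.04 CPM in PBS_SAL 105, against 5.14 CPM in the next highest PBS_SAL library. Folr2 had 2.78 CPM in HDM_CP 96, and the next lowest HDM_CP library had 6.75 CPM.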

How the results depend on the processing

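Each comparison was repeated under 41 alternatives (40 for the interaction, which could not be refitted with only the groups compared), 27 of which left out 1 library. Of 2205 values of the 9 genes under an alternative, 2122 kept their direction and their side of the threshold. No paired analysis was possible because the groups share no replicate numbers. The cause of the changes that follow was not tested. In HDM_SAL against PBS_SAL, 3 of the 9 genes were called, against 5 with DESeq2, and 1 with no filter on low counts, with limma on log2(TPM + 1), on log2(TPM + 0.1) or on log2(TPM + 1) with no filter, and with runs of library numbers as a block, and 0 without HDM_SAL 50, 54 and 99, the libraries over 3% mitochondrial (an alternative chosen after seeing the data). With 1 library left out that count ran from 1 (without HDM_SAL 50 or 99, or PBS_SAL 61 or 80) to 5 (without PBS_SAL 105). Arg1 there gave 2.36 with no filter on low counts, 1.57 on log2(TPM + 1) with no filter and 2.23 with the block (adjusted p = 0.05, 0.14 and 0.057). Of all genes, 1321 were called there (767 higher, 554 lower), against 2020 with DESeq2, 764 with limma on log2(TPM + 1) with no filter (330 higher, 434 lower), 1374 with the filter (522 higher, 852 lower) and 1385 on log2(TPM + 0.1) (537 higher, 848 lower), and 34 without the libraries over 3% mitochondrial, where Flt1 turned to 0.00734. Leaving out 1 library gave 590 to 1711, lowest without HDM_SAL 99, and 699, 697 and 788 without HDM_SAL 50, HDM_SAL 54 and PBS_SAL 80.

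In PBS_CP against PBS_SAL, 2 of all genes were called, against 32 with DESeq2, 11 with limma voom, 4 with only the groups compared or on log2(TPM + 0.1), 1 with no filter on low counts or on log2(TPM + 1) with no filter or without the libraries over 3% mitochondrial, and 1 to 5 with 1 library left out. There Pdcd1lg2 turned to 0.00936 with the block and ran from -0.156 to 0.0656 with 1 library left out, Clec10a turned to 0.0327 without the 3 libraries under 60 M (an alternative chosen after seeing the data) and ran from -0.21 to 0.0353, and Tmem26 ran from -0.0958 to 0.105.

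In HDM_CP against HDM_SAL, 1 of all genes was called, against 193 with DESeq2, 3 with limma voom, 2 on log2(TPM + 1) with or without the filter, 2 with the block, 4 with estimated counts divided by 4 and 4 without the libraries under 60 M. With 1 library left out it ran from 1 to 143, with 143, 46, 16 and 14 without HDM_CP 45, HDM_CP 96, HDM_SAL 99 and HDM_CP 66. Flt1 turned to 0.0337 on log2(TPM + 1) with or without the filter and to 0.0343 on log2(TPM + 0.1), and ran from -0.109 to 0.0577 with 1 library left out. Arg1 was not called under any of the 41, with adjusted p from 0.056 to 0.6.

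In HDM_CP against PBS_CP, 1937 of all genes were called, against 1192 on log2(TPM + 1) with no filter and 1210 (without HDM_CP 98) to 2644 with 1 library left out. The interaction called 0 genes, against 6 with DESeq2 and 0 to 1 with 1 library left out. There Flt1 turned to -0.00351 with the block and to -0.183 without the libraries over 3% mitochondrial, and ran from -0.0533 to 0.114 with 1 library left out, and Folr2 ran from -0.0387 to 0.263.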
